A study of Rattus norvegicus with 6 samples.

Results

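The genes of sphingosine 1-phosphate (S1P) and lysophosphatidic acid (LPA) signalling were followed in 2 rat cell strains, a bile duct cancer strain and a fibroblastic strain from the same tumour model. The 10 genes were chosen by symbol, S1pr1, S1pr2, S1pr3, Sphk1, Sphk2, Sgpl1, Sgpp1, Lpar1, Enpp2 and Plpp3, and a gene entered when the array annotation gave a probe set that symbol and no other. Of the 10 genes 9 were found, read by 15 probe sets, among 14217 named genes on the array, and Sgpp1, an S1P phosphatase, has no value here.

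RNA was measured on 6 rat Affymetrix arrays, 3 of BDEsp-TDECC (TDECC) and 3 of BDEsp-TDESM (TDESM). Both came from orthotopic tumours that grew in young adult male rats of the Fischer 344 background after BDEsp cells, cholangiocytes that had transformed spontaneously, were placed in the bile duct. TDECC is described as a clonal cholangiocarcinoma strain and TDESM as a clonal cancer-associated fibroblastic strain that overexpresses Acta2. All 6 arrays carry the same texts on a 3-dimensional co-culture in rat collagen type I gel and on the TGF-beta inhibitors SB 431542 and LY2157299, without saying which cultures received them. Each group is thus 1 clone. The labels do not tell whether replicates were separate cultures, so the p-values weigh the spread among arrays and that spread may be only technical.

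The arrays had medians of 5.80 to 5.86 on the log2 scale. All 6 cancer cell markers (Krt19, Krt7, Krt18, Krt8, Epcam and Cdh1) were lower in TDESM and all 8 fibroblastic markers, Acta2 and Col1a1 among them, were higher, so the labels and the markers went the same way. A control transcript that was not added to the samples read between 2.80 and 3.53 over the 6 arrays, and this range is used below as a mark of background. Levels of different probe sets are not compared, since probes differ in brightness. Every log2 difference is TDESM minus TDECC.

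S1P is a lipid signal made inside cells from sphingosine by the kinases Sphk1 and Sphk2. It leaves the cell through carriers such as Spns2, acts on S1pr receptors at the cell surface, and is broken down by the lyase Sgpl1 or dephosphorylated again. LPA is made mostly outside cells by autotaxin, the product of Enpp2, acts on Lpar receptors, and is dephosphorylated by the membrane phosphatase encoded by Plpp3. In cholangiocytes S1pr2 is also known as a receptor of conjugated bile acids.

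The S1P receptors S1pr1, S1pr2 and S1pr3, the kinase Sphk1 and the LPA receptor Lpar1 were higher in TDESM, and the kinase Sphk2 was lower. The largest difference was that of S1pr3, which read near background in TDECC and at a log2 value of 10.71 ± 0.08 (SD, n = 3) in TDESM. The lyase Sgpl1, the autotaxin gene Enpp2 and the phosphatase Plpp3 did not pass the test. In counts, 5 of 9 members rose in TDESM and 1 fell by limma with Benjamini-Hochberg adjustment over all 14217 genes at a threshold of 0.05. Over all genes 42.7% passed, 22.1% upward and 20.6% downward. Tested singly, 7 of the 15 member probe sets were higher and 2 lower, against 40.7% of all probe sets called either way. The median log2 difference of the 9 members was 1.60, and that of all genes was 0.0033. The values of the strains did not overlap for 6 of 9 members, against 53.6% of all genes, and each of these 6 had p = 0.1 in an exact permutation test (two-sided), the smallest value possible with 3 against 3 arrays.

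These directions hold relative to the median gene of arrays that were brought to the same distribution. With arrays centred instead on the poly-A control transcripts added to the RNA, the median gene shifted to -1.22. This takes 1 value from all genes of an array. The poly-A means ran from 7.22 to 7.65 on TDECC arrays and from 8.34 to 9.03 on TDESM arrays. An error in that value is shared by all genes. With this centring limma also gave genes of equal log2 difference equal p-values, whatever their own spread. Pld2 and Acer1, both at -2.07, both had limma adjusted p = 8.71e-08, though their SE at the deposited scaling was 0.13 and 0.45. The p-values and calls with this centring, here and below, thus weigh that error poorly and do not reflect the spread of the single gene. In place of 3135 genes higher and 2930 lower, 898 were then higher and 10873 lower. Under that centring S1pr3, Sphk1 and S1pr1 stayed higher, at log2 differences of 5.74, 1.34 and 0.83. S1pr2 (0.71, limma adjusted p = 0.0633) and Lpar1 (0.38, limma adjusted p = 0.331) no longer passed. Sphk2 stayed lower (-2.17), and 3 members that had not passed were then lower: Sgpl1 (-1.67, limma adjusted p = 1.91e-05), Enpp2 (-1.04, limma adjusted p = 0.00664) and Plpp3 (-0.98, limma adjusted p = 0.0104).

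**Figure D1:**
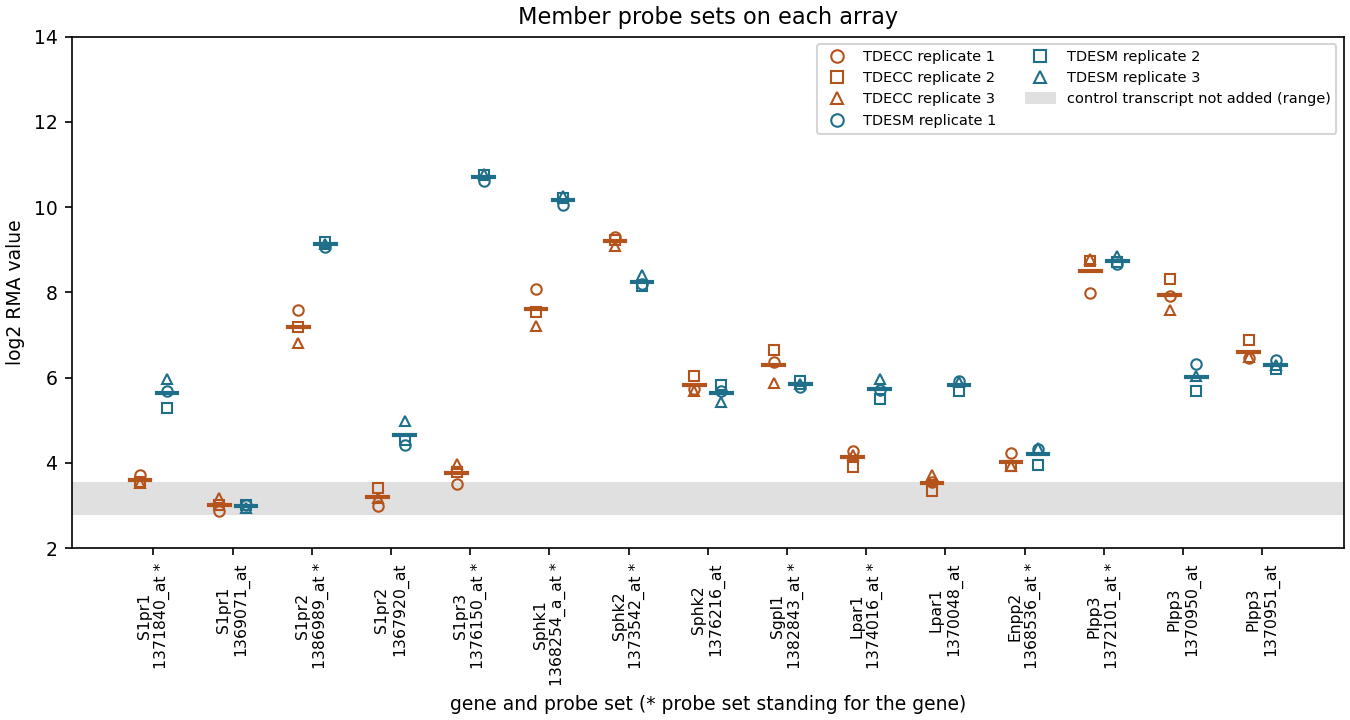
Log2 RMA values (vertical axis) of the 15 probe sets of the 9 measured genes on each of 3 TDECC and 3 TDESM arrays, with a bar at each strain's mean and a grey band from 2.80 to 3.53 for the control transcript that was not added. S1pr3 stands at 3.51 to 3.97 on TDECC arrays and at 10.62 to 10.77 on TDESM arrays, and the probe sets of S1pr1, Sphk2 and Plpp3 do not all show the same difference.

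The promoter windows of the receptors and of Sphk1 are shown because these members rose together. Each window holds 300 bases, 250 before and 50 from the annotated start of the gene, from the RefSeq annotation of build GRCr8, which has windows for 8 of the 10 genes. Lower case is used throughout except for letters matching one of 4 motifs, searched on both strands: the AP-1 letters TGANTCA, the TEAD letters GGAATG, the CArG box and the GC box GGGCGG, the last added after the sequences had been seen.
S1pr1, chr2:206314021-206314320, minus strand: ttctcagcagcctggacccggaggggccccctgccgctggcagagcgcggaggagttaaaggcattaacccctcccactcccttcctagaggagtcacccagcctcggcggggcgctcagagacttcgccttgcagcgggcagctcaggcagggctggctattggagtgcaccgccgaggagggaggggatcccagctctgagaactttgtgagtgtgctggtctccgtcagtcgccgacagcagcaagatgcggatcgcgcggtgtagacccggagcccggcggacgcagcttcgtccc
S1pr2, chr8:27790295-27790594, minus strand: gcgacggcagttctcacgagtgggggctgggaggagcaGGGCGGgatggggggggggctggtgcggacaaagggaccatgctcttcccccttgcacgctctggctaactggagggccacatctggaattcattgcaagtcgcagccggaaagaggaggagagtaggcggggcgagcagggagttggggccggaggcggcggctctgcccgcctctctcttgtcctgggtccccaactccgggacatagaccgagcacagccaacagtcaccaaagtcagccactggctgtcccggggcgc
S1pr3, chr17:13945964-13946263, minus strand: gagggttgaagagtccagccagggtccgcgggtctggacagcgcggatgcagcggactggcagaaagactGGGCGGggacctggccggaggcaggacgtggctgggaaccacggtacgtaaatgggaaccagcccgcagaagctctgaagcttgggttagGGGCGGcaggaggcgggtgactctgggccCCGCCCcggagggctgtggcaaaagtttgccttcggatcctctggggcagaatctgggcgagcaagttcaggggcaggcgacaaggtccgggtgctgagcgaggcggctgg
Sphk1 upstream start, chr10:102257163-102257462, plus strand: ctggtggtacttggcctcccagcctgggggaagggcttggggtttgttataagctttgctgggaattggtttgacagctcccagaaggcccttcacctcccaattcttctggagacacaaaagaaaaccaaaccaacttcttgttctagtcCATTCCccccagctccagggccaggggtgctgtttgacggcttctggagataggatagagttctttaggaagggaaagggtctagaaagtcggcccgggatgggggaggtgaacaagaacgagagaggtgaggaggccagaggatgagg
Sphk1 middle start, chr10:102258004-102258303, plus strand: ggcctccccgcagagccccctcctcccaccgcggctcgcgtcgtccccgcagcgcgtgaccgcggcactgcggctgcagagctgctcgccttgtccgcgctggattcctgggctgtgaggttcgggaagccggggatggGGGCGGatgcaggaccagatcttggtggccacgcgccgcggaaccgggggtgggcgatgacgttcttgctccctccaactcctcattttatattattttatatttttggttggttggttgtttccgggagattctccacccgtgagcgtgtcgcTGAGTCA

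None of the 3 receptor windows held AP-1, TEAD or CArG letters. The S1pr3 window held 3 GC boxes and that of S1pr2 held 1, against 33.1% of all 33465 windows with at least 1. A GC box stood in 6 of the 10 member windows, among them that of Sgpl1, which did not pass the test and held 3, and it was not in that of S1pr1. Sphk1 has 3 annotated starts: the upstream one had TEAD letters (14.2% of all windows), the middle one had a GC box and AP-1 letters (7.33% of all windows), and the third, not shown, had none of the 4. CArG letters stood in 0 of 10 member windows and in 1.64% of all windows. A looser form of the CArG box, with any letters inside, stood in all 10 member windows and in 71.5% of all windows. The receptor windows were rich in G and C, at 66.3% for S1pr1 and S1pr2 and 66.7% for S1pr3, against a median of 51.7% over all windows, and the windows of Sgpl1 (73%) and Sgpp1 (69.7%) were richer still. These matches describe letters and were not tied to any binding measurement.

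S1pr3, a receptor coupled to several classes of G protein and known from vascular and mesenchymal cells, read 3.51, 3.78 and 3.97 on the TDECC arrays and 10.62, 10.75 and 10.77 on the TDESM arrays. The lowest TDESM value stood 6.65 above the highest TDECC value. The log2 difference was 6.96 (SE 0.15, 95% CI 6.60 to 7.32, limma adjusted p = 1.89e-07), and 63 of 14217 genes had a larger rise. A single probe set reads this gene. The TDECC values lie at or just above the background mark, where the array sets a floor, and the difference is that of the readings.

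S1pr2, the receptor that binds conjugated bile acids, read 7.58, 7.19 and 6.82 in TDECC and 9.06, 9.18 and 9.14 in TDESM. All TDESM arrays were above all TDECC arrays, and the receptor was well above background in both strains. The log2 difference was 1.93 (SE 0.20, 95% CI 1.46 to 2.40, limma adjusted p = 2.59e-04). Its other probe set, 1367920_at, read 2.99 to 3.40 in TDECC and 4.41 to 4.99 in TDESM, with a log2 difference of 1.46 (limma adjusted p = 9.08e-04 over probe sets). Both probe sets thus had the fibroblastic strain higher, the second from the background level. With the arrays centred on the poly-A controls neither set passed. The log2 differences were then 0.71 (limma adjusted p = 0.0596 over probe sets) and 0.24 (limma adjusted p = 0.540 over probe sets).

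S1pr1, best known from endothelial cells and lymphocytes, gave readings that depended on the probe set. Probe set 1371840_at, the brighter one, read 3.72, 3.54 and 3.53 in TDECC and 5.68, 5.29 and 5.96 in TDESM, which differ by 2.05 on the log2 scale (SE 0.19, limma adjusted p = 1.42e-04). Probe set 1369071_at read 2.86 to 3.17 in TDECC and 2.95 to 3.02 in TDESM, within the range of the control transcript that was not added, and differed by -0.02 (limma adjusted p = 0.922 over probe sets). With the mean of both, the log2 difference was 1.01. The rise of S1pr1 therefore rests on 1 of 2 probe sets.

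Markers of endothelial cells and leukocytes, the other usual sources of S1pr1, were read in the same arrays. Of 11 endothelial genes 2 were higher in TDESM (Flt1 and Egfl7) and 1 lower (Pecam1). With arrays centred on the poly-A controls Flt1 (0.62, limma adjusted p = 0.104) and Egfl7 (0.23, limma adjusted p = 0.563) did not pass. The Pecam1 call was lost centred on housekeeping genes (limma adjusted p = 0.287), with the replicate number as a block (0.120), and without TDECC replicate 2 or 3 or any 1 TDESM replicate (limma adjusted p up to 0.132). The median over the list was 4.10 to 4.36 on TDECC arrays and 4.15 to 4.52 on TDESM arrays. Pecam1 stood at 3.80 in TDECC and 3.43 in TDESM, Kdr at 4.19 and 4.23. Not all were low: Ramp2 stood at 10.36 in TDECC and 9.57 in TDESM, Egfl7 at 7.03 and 8.47, and Flt1 at 5.62 and 7.47. Of 10 leukocyte genes 0 passed by limma and 0 had an unadjusted p under 0.05, with list medians of 4.43 to 4.56 and 4.55 to 4.67. Over all genes 42.7% passed. Without the dimmest genes 3 endothelial and 2 leukocyte genes were left to test, so the lack of calls among the others tells little. Ptprc stood at 3.68 in TDECC and 3.80 in TDESM, and Laptm5 at 6.42 and 6.88. Without TDECC replicate 3, 1 leukocyte gene was higher. Centred on the poly-A controls, 9 of 11 endothelial and 10 of 10 leukocyte genes were lower. The share of these cells in the result was not tested. In RNA from a culture, fewer cells of a type and less RNA per cell cannot be told apart.

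S1pr5, the other S1P receptor on the array, stood at 5.95 ± 0.24 in TDECC and 5.80 ± 0.10 in TDESM (SD, n = 3) and did not pass the test (log2 difference -0.15, limma adjusted p = 0.502). S1pr4 has no value here. Of the 4 S1P receptors read, 3 were therefore higher in TDESM at the deposited scaling, where 22.1% of all genes were higher. Of these, S1pr1 rose on 1 of its 2 probe sets. S1pr2 did not pass with arrays centred on the poly-A controls (limma adjusted p = 0.0633).

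The enzymes of S1P were read next. Sphk1, the cytosolic sphingosine kinase that growth factors activate, read 8.09, 7.53 and 7.21 in TDECC and 10.04, 10.22 and 10.26 in TDESM. All TDESM values were above all TDECC values by at least 1.95, and the log2 difference was 2.56 (SE 0.23, 95% CI 2.02 to 3.10, limma adjusted p = 1.24e-04). Its probe set has the suffix of a set shared by transcripts of 1 gene.

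Sphk2, the second kinase, found largely in the nucleus and on inner membranes, went the other way. It read 9.30, 9.22 and 9.09 in TDECC and 8.20, 8.15 and 8.40 in TDESM, with no overlap. The log2 difference was -0.95 (SE 0.13, 95% CI -1.26 to -0.65, limma adjusted p = 9.37e-04). The dimmer probe set 1376216_at read 5.68 to 6.03 and 5.44 to 5.82, which overlap, and differed by -0.17 (limma adjusted p = 0.445 over probe sets).

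Sgpl1, the lyase that ends S1P irreversibly, read 6.37, 6.65 and 5.87 in TDECC and 5.78, 5.92 and 5.85 in TDESM. TDECC replicate 3 lay within the TDESM values and the other TDECC arrays lay above them. The log2 difference was -0.45 (SE 0.20, 95% CI -0.93 to 0.04, limma adjusted p = 0.127). Without TDECC replicate 3 it was -0.66 (limma adjusted p = 0.0110), and with arrays centred on the poly-A controls it was -1.67 (limma adjusted p = 1.91e-05). Whether Sgpl1 passes thus changes with this array and with the scaling.

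On the LPA side, Lpar1, an LPA receptor prominent on fibroblasts, read 4.28, 3.91 and 4.19 in TDECC and 5.71, 5.49 and 5.97 in TDESM. The groups were 1.21 apart and the log2 difference was 1.60 (SE 0.17, 95% CI 1.19 to 2.002, limma adjusted p = 3.14e-04). Its other probe set, 1370048_at, read 3.33 to 3.71 and 5.69 to 5.92 and differed by 2.31 (limma adjusted p = 2.18e-05 over probe sets). Both probe sets of Lpar1 thus rose from low values. With the arrays centred on the poly-A controls the first, which stands for the gene, did not pass (log2 difference 0.38, limma adjusted p = 0.324 over probe sets). The second one still passed (log2 difference 1.09, limma adjusted p = 0.00407 over probe sets).

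Enpp2, which encodes the secreted LPA-making enzyme autotaxin, was low in both strains. It read 4.23, 3.93 and 3.92 in TDECC and 4.33, 3.94 and 4.36 in TDESM, and the groups overlapped. The log2 difference was 0.18 (SE 0.17, 95% CI -0.21 to 0.58, limma adjusted p = 0.428). No array read it above 4.36, close to the background mark, and its sign turned with arrays centred on the poly-A controls (-1.04).

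Plpp3, a phosphatase of LPA and S1P at the cell surface, was read by 3 probe sets that disagreed. The brightest, 1372101_at, read 7.99, 8.74 and 8.78 in TDECC and 8.67, 8.72 and 8.85 in TDESM, with a log2 difference of 0.24 (SE 0.23, 95% CI -0.29 to 0.78, limma adjusted p = 0.440). Probe set 1370950_at read 7.91, 8.32 and 7.59 in TDECC and 6.32, 5.68 and 6.05 in TDESM, and differed by -1.92 (limma adjusted p = 6.63e-04 over probe sets). Probe set 1370951_at read 6.46 to 6.89 and 6.20 to 6.42 and differed by -0.30 (limma adjusted p = 0.173 over probe sets). The brightest set thus overlapped between the strains. Both 1370950_at and 1370951_at had every TDESM array below every TDECC array, and of these only 1370950_at passed. With the mean of all 3 sets Plpp3 was lower by the test (log2 difference -0.66, limma adjusted p = 0.0165), and without TDECC replicate 1, its lowest array, the brightest set differed by -0.013. Its sign also turned with arrays centred on the poly-A controls (-0.98).

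**Figure D2:**
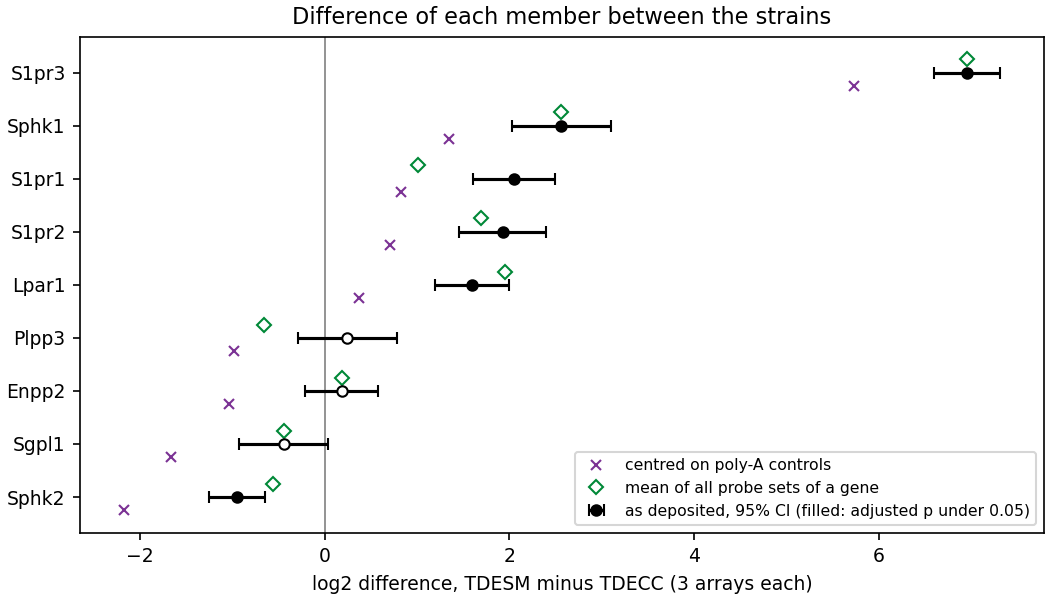
Log2 difference, TDESM minus TDECC (horizontal axis), of each of the 9 measured genes, with the 95% confidence interval of the limma fit and with 2 other settings, the mean of all probe sets of a gene and arrays centred on the poly-A controls. S1pr3 at 6.96 lies far to the right of the other genes, Sphk2 at -0.95 is the lowest, and the poly-A centring moves every gene to the left by the same amount.

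The 9 members varied about as much between arrays as other genes. Their median SD was 0.23 in TDECC and 0.12 in TDESM, and over all genes it was 0.24 and 0.12. In TDECC the widest members were Sphk1 and Plpp3 (SD 0.45 each), and in TDESM S1pr1 (SD 0.34).

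How unequally pairs of members differed was read within each array, which removes any scaling that moves all genes of an array together. There were 7 pairs, and a pair of Sgpp1 with Sgpl1 could not be formed. Sphk1 relative to Sphk2 was higher in TDESM by 3.52 on the log2 scale, and Sphk1 relative to Sgpl1 by 3.01. S1pr2 relative to S1pr3 differed by -5.03 and S1pr1 relative to S1pr3 by -4.91. Enpp2 relative to Lpar1 differed by -1.41. In TDECC S1pr3 and S1pr1 read at or just above the background mark, and Lpar1 and Enpp2 were low, so the sizes of the pairs that hold them are those of readings near a floor. Each of these 5 pairs had strains that did not overlap, with an exact permutation p = 0.1, the smallest possible, and p = 0.14 adjusted over the 7 pairs. These separations follow from the gaps of single genes given above, 1.95 for Sphk1, 6.65 for S1pr3 and 1.21 for Lpar1. They are therefore not further evidence beside the single genes. How often other pairs of genes separate was not computed, and 53.6% of single genes did not overlap.

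S1pr2 and S1pr1 differed unequally by only -0.12 (exact permutation p = 0.8, adjusted 0.933), from -0.42 to 0.29 on the TDESM arrays around the TDECC mean. Enpp2 relative to Plpp3 differed by -0.06 (exact permutation p = 1). With the mean of all probe sets of a gene these values were 0.68 and 0.84, since S1pr1 and Plpp3 are the genes whose probe sets disagree, and 7 of 7 pairs then had strains that did not overlap.

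**Figure D3:**
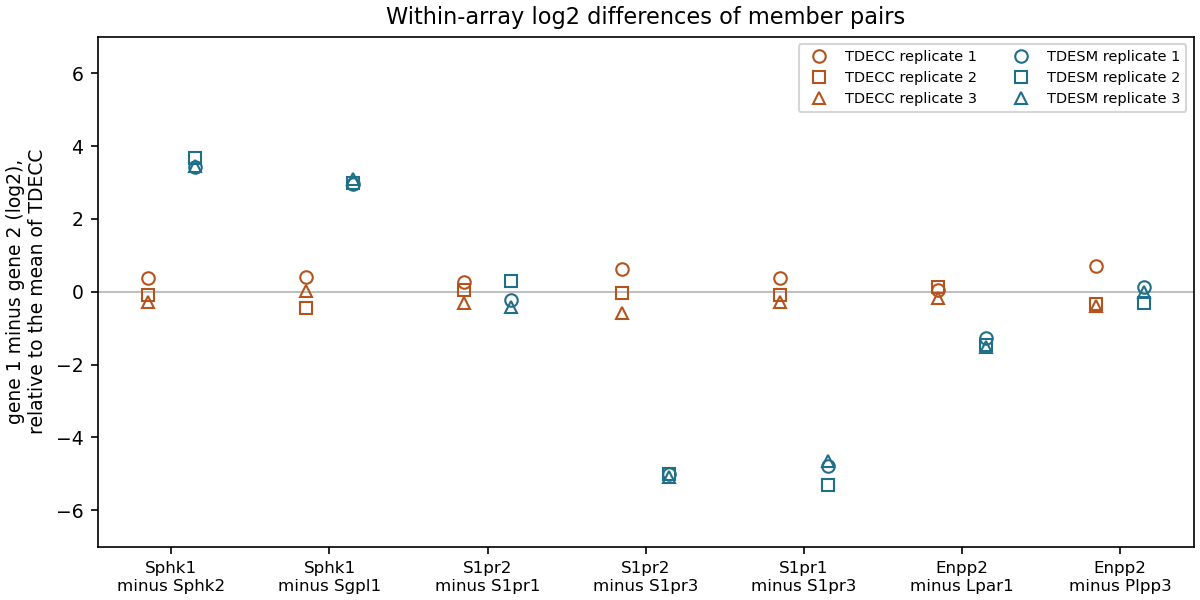
Within-array log2 difference of each of 7 pairs of members (vertical axis, relative to the mean of the TDECC arrays) on the 3 TDECC and 3 TDESM arrays. TDESM arrays lie at 3.43 to 3.66 for Sphk1 minus Sphk2 and at -5.07 to -5.003 for S1pr2 minus S1pr3, and overlap the TDECC arrays for S1pr2 minus S1pr1 and Enpp2 minus Plpp3.

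Beyond the 10 genes, 6 lists of other genes around S1P, LPA and bile acids held 57 symbols, of which 45 were measured. Of these 11 were higher in TDESM, 11 lower and 23 did not pass, with a median log2 difference of -0.03. Over all genes 22.1% were higher and 20.6% lower, so the shares called among these 45 genes lay near those of the array as a whole, and the counts of each list below are read against the same shares. Centred on the poly-A controls, 3 rose and 33 fell and the median was -1.25. Genes named below are those past the threshold with a log2 difference of at least 1 in size, up to 5 each way in a list. Genes named beyond that were added after their values were seen. All directions given are those of the deposited scaling.

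Among 4 carriers of S1P, none was higher and 2 were lower in TDESM, a median of -0.92. Spns2, the S1P exporter of the cell surface, stood at 9.59 ± 0.77 in TDECC and 5.30 ± 0.15 in TDESM (SD, n = 3), a log2 difference of -4.30 (limma adjusted p = 9.35e-05). Its other probe set differed by -3.83, so both read the exporter far lower in the fibroblastic strain. Abcc1, a transporter that can also carry S1P, differed by -1.74, whereas Abca1 (-0.10) and Apom (-0.02), the S1P carrier of plasma lipoproteins, did not pass. Of the other probe sets of Abca1, 1 was lower (-1.08, limma adjusted p = 0.00903 over probe sets), and the mean of its probe sets differed by -0.47 (limma adjusted p = 0.202).

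Of 4 other LPA receptors 1 was higher and 1 lower. Lpar6, a receptor of a family distinct from Lpar1, stood at 5.35 ± 0.50 in TDECC and 7.62 ± 0.21 in TDESM (SD, n = 3), a log2 difference of 2.27 (limma adjusted p = 4.27e-04). Lpar3 fell by 0.89 on the log2 scale from low values (limma adjusted p = 0.0218), and this call was lost without TDECC replicate 2 or without any 1 TDESM replicate (limma adjusted p up to 0.0839). Lpar2 (-0.71) and Lpar4 (-0.06) did not pass.

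Among 19 genes that make or use ceramide and sphingosine, 6 were higher, 6 lower and 7 did not pass, with a median of -0.20. Higher in TDESM were Smpd1, the acid sphingomyelinase (2.43), Degs1, the desaturase that completes ceramide (1.82), and the ceramide synthases Cers5 (1.503) and Cers4 (1.15). Lower were Degs2, a related enzyme that makes phytoceramide (-3.98), the neutral ceramidase Asah2 (-1.67), Kdsr, an early step of the pathway (-1.61), the glucosylceramide synthase Ugcg (-1.42) and the sphingomyelin synthase Sgms1 (-1.27). Degs1 and Degs2 thus went opposite ways. The Kdsr call was lost without TDECC replicate 3 or any 1 TDESM replicate (limma adjusted p up to 0.0684). With the mean of their probe sets Asah2 differed by -0.98 and Sgms1 by -0.46. Centred on the poly-A controls Smpd1 stayed higher (1.21), Degs1 (0.60) and Cers5 (0.28) no longer passed and Cers4 changed sign (-0.07).

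Of 9 genes that make LPA or its precursors or remove its phosphate, 4 were higher, 2 lower and 3 did not pass, with a median of 0.30. Plpp1 and Plpp2, relatives of Plpp3, differed by 2.04 and -1.46, so the phosphatase genes did not move as a group. Also higher were Pla2g4a, the cytosolic phospholipase A that releases arachidonate (1.65), the phospholipase D gene Pld1 (1.54) and Pla1a, a secreted phospholipase (1.30). With the mean of their probe sets Plpp1 differed by 1.27 and Pld1 by 0.70. Centred on the poly-A controls Plpp1 stayed higher (0.82), and Pla2g4a (0.43), Pld1 (0.32) and Pla1a (0.08) did not pass.

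Among 8 other bile acid receptors and bile acid carriers read beside S1pr2, limma called none in either direction, with levels of 3.82 to 5.12 in TDECC and 3.49 to 5.21 in TDESM. At these settings 0 of 8 passed, and 1 of 8, Slc10a2, had an unadjusted p under 0.05 (log2 difference -1.20, limma adjusted p = 0.0546). One gene of the 8, Slc10a2, was lower with arrays centred on housekeeping genes, with the replicate number as a block, and without TDECC replicate 2 or replicate 3. Centred on the poly-A controls 8 of 8 were lower. Nr1h4, the nuclear bile acid receptor FXR, stood at 3.82 ± 0.64 in TDECC and 3.79 ± 0.07 in TDESM (SD, n = 3). S1pr2, with 7.20 ± 0.38 and 9.13 ± 0.06, passed the test at the deposited scaling. Centred on the poly-A controls it did not (0.71, limma adjusted p = 0.0633). The other 8 genes read low in both strains, and 0 of them were left to test without the dimmest genes. At such low readings, the lack of calls among them does not tell whether S1pr2 differs from them. Its level is not compared with theirs, since the probe sets differ. Gpbar1 has no value here.

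**Figure D4:**
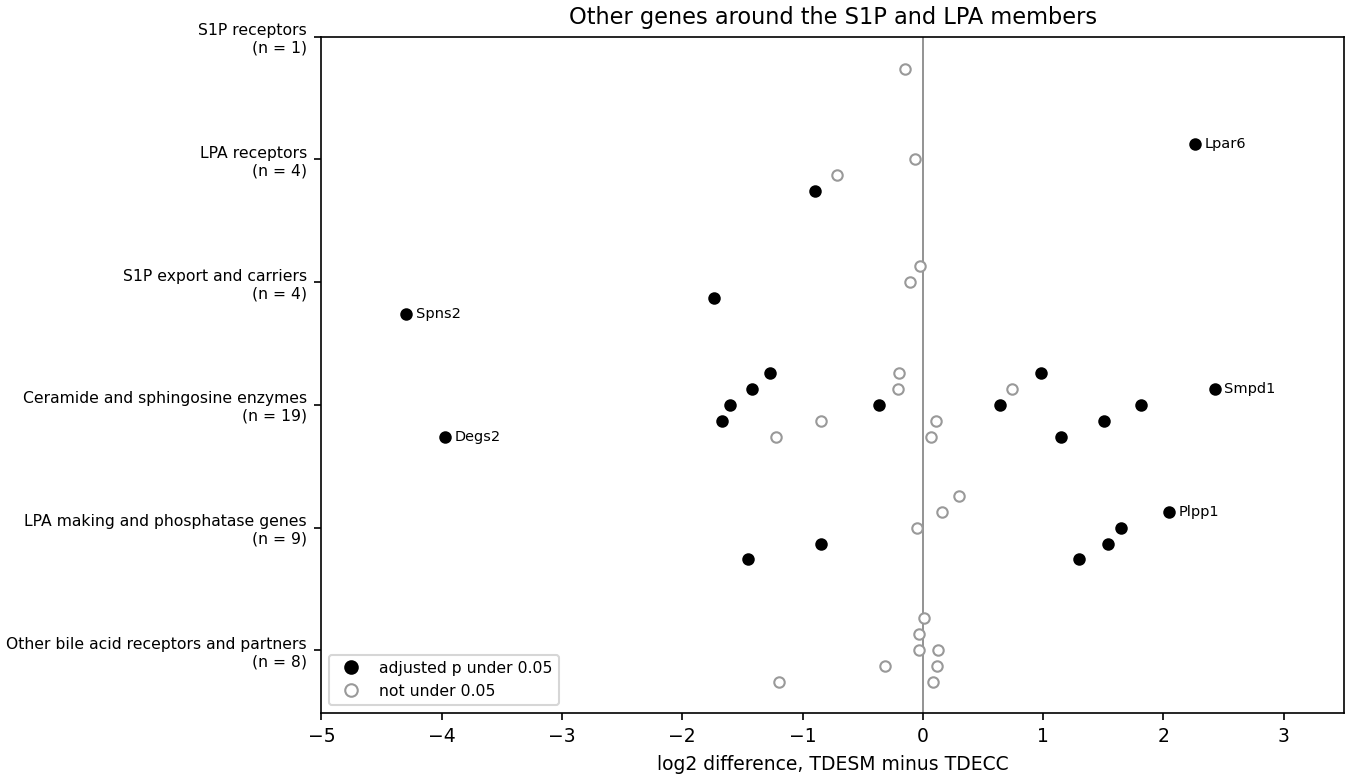
Log2 difference, TDESM minus TDECC (horizontal axis), of the 45 measured genes of 6 lists around the members, filled where the limma adjusted p is under 0.05, with names where the difference is at least 2 in size. Spns2 at -4.30 and Degs2 at -3.98 lie farthest to the left, and Smpd1 at 2.43, Lpar6 at 2.27 and Plpp1 at 2.04 farthest to the right.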

How the data were processed

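The deposited table holds log2 values from RMA, run by the authors according to the submitters' processing notes, with no version stated in those sources. There are no detection calls, and precision is limited by the number of arrays. Of 31099 probe sets, 20832 had 1 symbol in the platform annotation, 436 had several and 9831 were not listed. For each gene the probe set of highest mean value was taken, leaving 14217 genes. TDESM was tested against TDECC with limma 3.58.1 in R 4.3.3 (lmFit and eBayes, two-sided, Benjamini-Hochberg over all genes, no replicate block), and probe sets in the same way. Fits were tested on simulated data. Named genes were all members with each of their probe sets, and, from 6 lists, genes past the threshold with a log2 difference of at least 1 in size, up to 5 each way. Members and lists were chosen with earlier results of these data known. Of 111 other list symbols 92 were measured, and 1 further list is not reported here. Alternatives were cyclic loess, centring on 11 housekeeping genes or on 24 poly-A control probe sets, dropping the 33.3% dimmest genes, averaging a gene's probe sets, trend and robust eBayes, a replicate block, a 2-fold minimum, probe sets as the unit, and each array left out.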

Additional observations from a re-analysis of the deposited data

How the results depend on the processing

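S1pr3, Sphk1 and S1pr1 kept their direction and passed in every alternative fitted to whole genes, except that S1pr1 was not tested among the brighter genes. S1pr2, Lpar1 and Sphk2 kept their direction in all of those run on them. Of 14217 genes 6065 passed; 11771 did centred on the poly-A controls, 3623 with a 2-fold minimum, and 4605 to 6437 leaving out each array in turn. Members higher in TDESM fell from 5 to 3 centred on the poly-A controls, and to 3 without the dimmest genes because S1pr1, Lpar1 and Enpp2 were then not tested. Leaving out each array kept 5. Members lower went from 1 to 4 centred on the poly-A controls, 2 with the mean of all probe sets, 2 with probe sets as the unit, 0 with the 2-fold minimum, and 1 to 2 leaving out each array. The sign turned for Enpp2 (-1.04) and Plpp3 (-0.98) centred on the poly-A controls. It turned for Plpp3 when its probe sets were averaged (-0.66) and without TDECC replicate 1 (-0.013, in a range up to 0.38), on its probe sets 1370950_at (-1.92) and 1370951_at (-0.30), and for S1pr1 on probe set 1369071_at (-0.02). The cause was not tested. Of 7 pairs 5 were separate between the strains, 5 to 6 leaving out each array and 7 with the mean of all probe sets. The share of separate pairs among all genes was not computed, so these counts are not a trait of the members. Among single genes 53.6% did not overlap. With the replicate block 5342 genes passed and no member changed its call. Same-numbered arrays deviated with correlations of -0.07, 0.02 and -0.14, and arrays of different numbers with -0.14 to 0.15. As deviations from means of 3 arrays, these values do not tell whether same-numbered arrays were handled together.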
